A study of Mus musculus with 13 samples.

Results

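The major urinary proteins are encoded by a cluster of close paralogs on mouse chromosome 4, and the values of 10 of these genes, Mup1, Mup3, Mup7, Mup11, Mup12, Mup16, Mup17, Mup18, Mup20 and Mup21, were followed in liver RNA after bile duct ligation (BDL). They were found by matching the Entrez number of each row to a RefSeq symbol, and they are 10 of the 20 Mup genes with a row in all 3 deposited count tables. The 10 were chosen on results of these same tables that were already known, so their levels and fold changes are given as a description, without a test of their own. The sequenced livers came from mice labelled C57 and 3 months of age. The no BDL group held 5 mice labelled as not treated. No sham surgery or control injection is given for them, so that ligation, surgery and injection cannot be told apart in comparisons with this group. The miR-Ctrl BDL group held 4 mice with BDL and a control inhibitor, and the anti-miR-873-5p BDL group, written anti-miR BDL from here on, held 4 mice with BDL and a hairpin inhibitor of miR-873-5p. Per the study's methods, the ligated mice received 60 µg of inhibitor by tail vein on days 3 and 5 after BDL, and livers were taken on day 7. The methods give male mice for the study, and transcripts of Ddx3y, a gene of the Y chromosome, were counted in all 13 mice (489 to 624 counts). Total counts ran from 14610598 to 19689037 in no BDL, from 12185333 to 14923369 in miR-Ctrl BDL and from 12857186 to 15163990 in anti-miR BDL. Outside the rows of the Mup family the ranges were close, with 12579824 to 14718995 counts in no BDL, 12178799 to 14854045 in miR-Ctrl BDL and 12838185 to 15010934 in anti-miR BDL. These totals still hold a row without a symbol that follows Mup1 and is described at the end. It had 538152 to 1437482 counts in no BDL mice and 1302 to 85045 in BDL mice.

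Major urinary proteins are small secreted lipocalins, that is, barrel-shaped proteins that hold a hydrophobic ligand. The mouse liver makes them in very large amounts, the kidney passes them into urine, and there they bind volatile pheromones and release them slowly. Males make more than females, and transcription in hepatocytes depends on the male pattern of growth hormone pulses, which acts through the growth hormone receptor, JAK2 and STAT5B. Mup20 encodes darcin, the urinary protein that itself acts as a male sex pheromone, whereas Mup1 and its close copies encode the bulk of urinary protein.

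On GRCm38 the 10 genes lie on chromosome 4 between position 60066469, in Mup7, and position 62150841, in Mup21. They fell into 1 group of 7 near-identical copies and 3 more distant members. In the GENCODE M21 models of GRCm38, the coding sequences of Mup1, Mup7, Mup11, Mup12, Mup16, Mup17 and Mup18 were 98.3% to 99.8% identical over the 21 pairs, and these 7 are called the central members here. Mup20 was 90.1% to 91.3% identical to them, Mup21 83.6% to 84.9% and Mup3 82.1% to 83.5%, while Mup3 and Mup21 were 94.7% identical to each other. A stretch of 50 bases, as long as 1 sequencing read, shows the difference. It lies in coding exon sequence (exon 2 of the transcript, minus strand), and capitals mark bases that differ from Mup1. The 7 central members all carry the Mup1 version, shown at chr4:60501299-60501348, and the annotation holds it in 12 genes.
Mup1 and the other central members: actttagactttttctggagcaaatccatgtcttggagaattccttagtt
Mup20 (chr4:62053497-62053546): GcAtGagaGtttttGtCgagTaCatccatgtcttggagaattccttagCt
Mup3 (chr4:62086817-62086866): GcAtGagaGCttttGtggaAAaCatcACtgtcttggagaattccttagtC
Mup21 (chr4:62150212-62150261): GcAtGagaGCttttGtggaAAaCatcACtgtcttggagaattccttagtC
Mup20 differed from Mup1 at 9 of these bases, and Mup3 and Mup21 at 12. A read from this stretch can therefore tell Mup20 from the other 9 members, but it cannot name 1 of the central members, nor tell Mup3 from Mup21.

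The same holds along the transcripts. Of all 50-base windows in the GENCODE transcripts of a gene, 61.6% for Mup1, 77.8% for Mup11, 78.1% for Mup17, 85.4% for Mup12, 86.7% for Mup7, 89.6% for Mup18 and 91.7% for Mup16 also occurred in another gene. The share was 13.3% for Mup3 and 19.3% for Mup21. For Mup20 it was 50.5%, but 48.0% of its windows were shared with Mup pseudogenes and 4.66% with another Mup gene. Counts of the central members are thus best read as a group, and those of Mup20, Mup3 and Mup21 as separate measurements. How reads that fit several genes were counted is not given in the sources used here.

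Upstream of the genes, promoter sequence in RefSeq (GRCm38.p6) was at hand for 6 of the 10 members. The motif TATATAA, the letters of a TATA box, was found on either strand in 5 of these 6 promoters and in 3.24% of all 32851 promoters of the same length, 250 bases before to 50 after the annotated start. It is shown in capitals after the 43 bases that precede it on the minus strand. The stretch sets Mup11 and Mup17, of the central members, side by side with Mup3 and Mup21.
Mup11 (chr4:60662391-60662440): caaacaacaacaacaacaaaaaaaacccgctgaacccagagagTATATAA
Mup17 (chr4:61595851-61595900): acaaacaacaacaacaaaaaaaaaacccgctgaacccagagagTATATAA
Mup3 (chr4:62087322-62087371): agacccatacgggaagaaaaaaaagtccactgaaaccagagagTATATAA
Mup21 (chr4:62150843-62150892): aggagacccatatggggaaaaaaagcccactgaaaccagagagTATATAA
The fifth was Mup18, also a central member. Before the motif it has cactga, as Mup3 and Mup21 do, where Mup11 and Mup17 have cgctga. The motif TTCNNNGAA, the letters of a STAT5 site, was in 0 of the 6 promoters and in 8.30% of all promoters, which says only that these letters are not in this short window.

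In the livers without BDL, the 10 genes together took between 7.63% and 16.4% of all counts. In the table shared with miR-Ctrl BDL the share was 15.2%, 16.4%, 7.63%, 14.4% and 13.1% in no BDL mice 1 to 5. It was 0.604%, 0.952%, 0.0351% and 0.286% in miR-Ctrl BDL mice 1 to 4. In anti-miR BDL mice 1 to 4 it was 1.88%, 0.0941%, 0.843% and 0.851%. All 8 ligated mice lay below all 5 mice without BDL, and mouse 3 was the lowest of the no BDL group. Because a read of the central members may have been counted at several genes, these sums are shares of counts and not of reads. With all 20 Mup rows the share in the no BDL mice was 14.4% to 31.7% in the table shared with miR-Ctrl BDL. In whole liver, fewer hepatocytes and less Mup RNA per hepatocyte cannot be told apart.

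**Figure D1:**
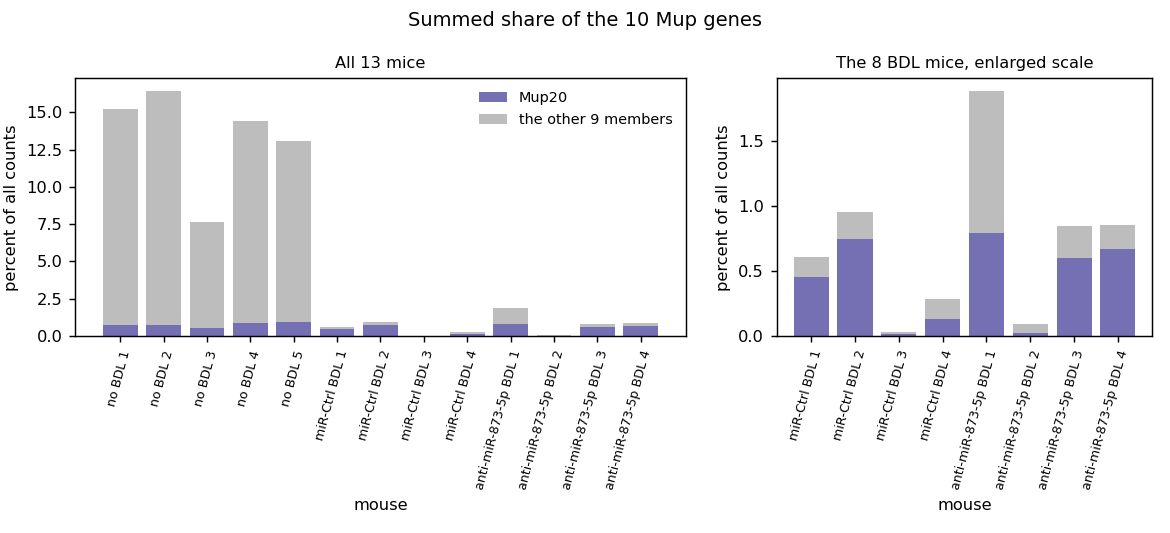
Summed share of the 10 Mup genes in percent of all counts of each mouse, with Mup20 in purple and the other 9 members in grey, for all 13 mice (left) and for the 8 BDL mice on a larger scale (right). The no BDL mice range from 7.63% to 16.4% and the BDL mice from 0.0351% to 1.88%, where Mup20 makes up a much larger part of each bar.

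Mup1, the member with the most counts in every mouse without BDL, shows the range. Levels are given as normalised CPM, the counts of a gene scaled to a common library size, computed with 1 scaling over all 13 mice. Mup1 stood at 66141, 75607, 23463, 56942 and 51526 in no BDL mice 1 to 5. In miR-Ctrl BDL mice 1 to 4 it stood at 329, 454, 54.8 and 381, and in anti-miR BDL mice 1 to 4 at 2665, 175, 538 and 381. All BDL mice were below all mice without BDL, and anti-miR BDL mouse 1 was the highest of the 8 BDL mice. The other central members kept this picture, with the lowest mouse without BDL at 2872 (Mup11, mouse 3) and the highest BDL mouse at 2043 (Mup12, anti-miR BDL mouse 1). Mup3, at 6555, 6965, 4510, 4961 and 3653 in no BDL mice 1 to 5, stood at 75.3, 98.5, 10.2 and 49.4 in miR-Ctrl BDL and at 325, 30.0, 87.4 and 73.1 in anti-miR BDL. Mup21 was the lowest member per kilobase in 12 of the 13 mice. It stood at 1782, 1943, 1103, 1418 and 941 in no BDL, at 16.4, 20.1, 2.50 and 12.8 in miR-Ctrl BDL and at 89.4, 7.59, 18.2 and 17.3 in anti-miR BDL. Its lowest value rested on 30 counts, so that no member was near the limit of detection.

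**Figure D2:**
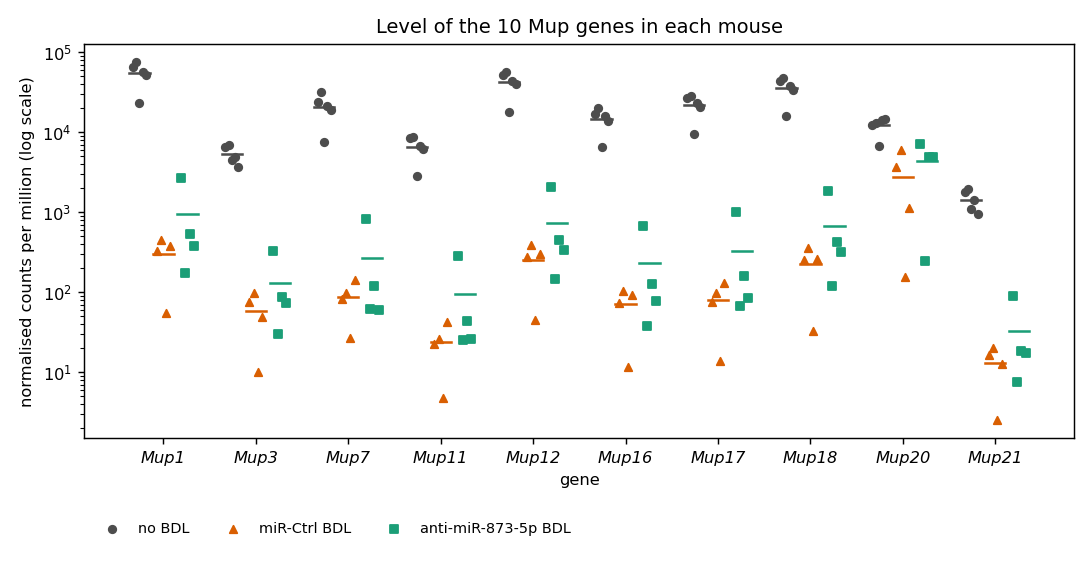
Normalised CPM (log scale) of the 10 Mup genes in each of the 13 mice, with 1 point per mouse and a bar at the group mean. Points of the no BDL mice lie above all BDL points for 9 genes, whereas for Mup20 the highest BDL mouse, at 7115, passes the lowest mouse without BDL, at 6725.

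Mup20, or darcin, was the exception. It stood at 12336, 13035, 6725, 14154 and 14636 normalised CPM in no BDL mice 1 to 5. The miR-Ctrl BDL mice had 3723, 6008, 154 and 1143, and the anti-miR BDL mice 7115, 246, 4919 and 4966. In each BDL group some mice thus kept a large part of the Mup20 level of livers without BDL, while miR-Ctrl BDL mouse 3 and anti-miR BDL mouse 2 were far below. These 2 mice are those that the deposited table of both BDL groups leaves out, after the authors removed outliers by clustering and principal component analysis.

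The order of the members therefore changed with BDL. Per kilobase of transcript, Mup1 was first, then Mup12 and Mup18, in all 5 no BDL mice, where Mup20 was sixth or seventh. The length was that of 1 transcript per gene, 927 bases for Mup1 and 926 for Mup12, and other lengths could change the order. Because the central members share most of their windows, their order among themselves is an order of counts and not of separately measured levels. In all 8 BDL mice Mup20 was first, followed by Mup1, Mup12 and Mup18 in that order. In mean normalised CPM per kilobase, the no BDL group had 59046 ± 21296 for Mup1, 45550 ± 16335 for Mup12, 38243 ± 13144 for Mup18, 23349 ± 7976 for Mup17, 22406 ± 9490 for Mup7, 15757 ± 5413 for Mup16, 13122 ± 3427 for Mup20, 7075 ± 2493 for Mup11, 5416 ± 1419 for Mup3 and 2123 ± 632 for Mup21 (SD, n = 5). Neighbours in this order differed by less than the larger SD of the pair, except for Mup18 and Mup17, for Mup20 and Mup11, and for Mup3 and Mup21. In miR-Ctrl BDL the means were 2971 ± 2843 for Mup20 and 329 ± 188 for Mup1, and in anti-miR BDL 4646 ± 3122 and 1014 ± 1251 (SD, n = 4). The means of Mup20 and Mup1 differed by less than the SD of Mup20 in miR-Ctrl BDL, although the order was the same in each mouse.

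Mup20 gave 4.48% to 7.18% of the counts of the 10 genes in the no BDL mice. In miR-Ctrl BDL mice 1 to 4 it gave 75.6%, 78.4%, 43.2% and 44.7%, and in anti-miR BDL mice 1 to 4 42.2%, 26.9%, 71.4% and 78.3%. The groups with and without BDL did not overlap in this share. The BDL mice spread widely, and both BDL groups held mice at the low and at the high end.

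**Figure D3:**
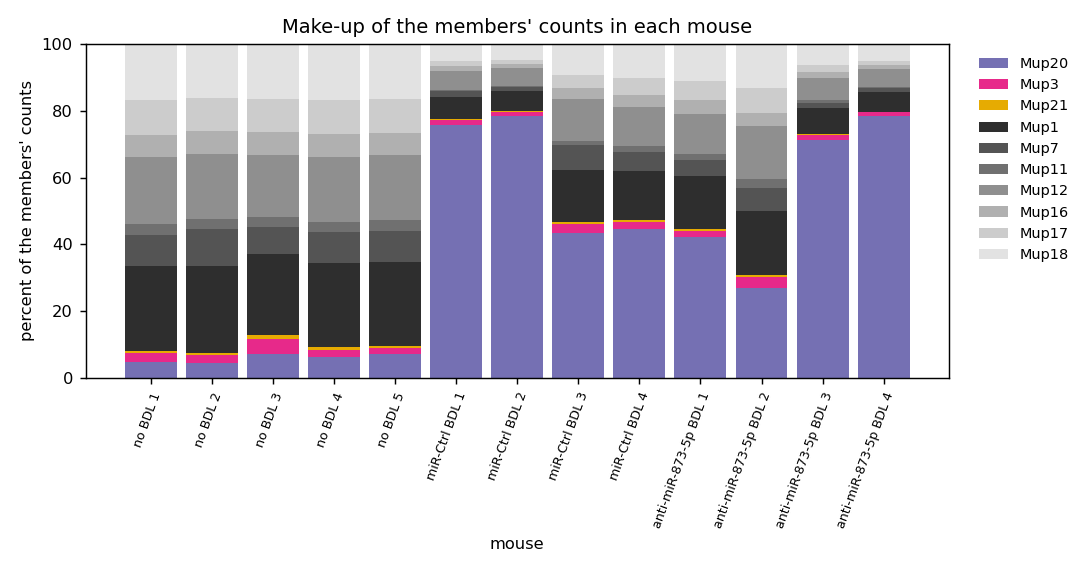
Make-up of the counts of the 10 Mup genes in each mouse, in percent of their sum, with Mup20 in purple, Mup3 in pink, Mup21 in yellow and the 7 central members in greys. Mup20 takes 4.48% to 7.18% in the no BDL mice and 26.9% to 78.4% in the BDL mice.

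The ratio to Mup1 within each mouse needs no scaling between mice. There were 0.187, 0.172, 0.287, 0.249 and 0.284 Mup20 counts per Mup1 count in no BDL mice 1 to 5. There were 11.3, 13.2, 2.81 and 3.00 in miR-Ctrl BDL mice 1 to 4 and 2.67, 1.41, 9.14 and 13.1 in anti-miR BDL mice 1 to 4. Mup3, which shares few windows with Mup1, ran at 0.0991, 0.0921, 0.192, 0.0871 and 0.0709 counts per Mup1 count in no BDL mice 1 to 5. It ran at 0.130 to 0.229 in miR-Ctrl BDL and 0.122 to 0.192 in anti-miR BDL. The ranges with and without BDL overlapped only through no BDL mouse 3, and the other no BDL mice lay below all BDL mice. Mup21 ran at 1.83 to 4.70, 3.37 to 4.99 and 3.36 to 4.54 counts per 100 Mup1 counts in the same order of groups. The no BDL median of Mup21 was 2.57, below every BDL mouse.

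Among the central members the ratios spread less without BDL than with it, and some also moved. Mup12 stood at 75.6 to 78.9 counts per 100 Mup1 counts in no BDL, 79.5 to 86.1 in miR-Ctrl BDL and 76.7 to 87.7 in anti-miR BDL. Mup11 stood at 11.4 to 12.8, 5.81 to 11.2 and 6.74 to 14.6. Mup11 was lowest against Mup1 in miR-Ctrl BDL mice 1 and 2 and anti-miR BDL mice 3 and 4, the 4 mice with the most Mup20 per Mup1. Mup20 shared 1.01% of the 50-base windows of Mup1, 1.82% of those of Mup12 and 1.71% of those of Mup11, and whether Mup20 reads were counted at these genes was not tested.

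**Figure D4:**
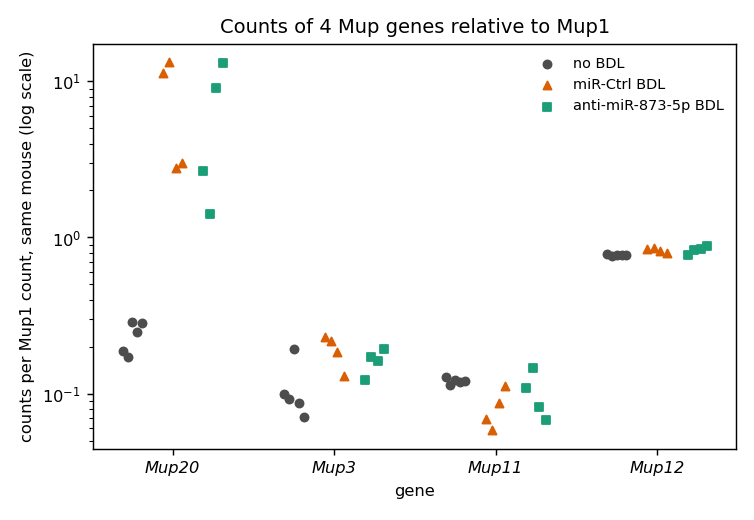
Counts of Mup20, Mup3, Mup11 and Mup12 per count of Mup1 in the same mouse (log scale), with 1 point per mouse. Mup20 runs from 0.172 to 0.287 in the no BDL mice and from 1.41 to 13.2 in the BDL mice, whereas the other 3 genes stay within a much narrower band.

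The comparison of miR-Ctrl BDL with no BDL sets ligated and injected livers beside untreated ones, so that ligation, surgery and injection cannot be told apart. All 10 members were lower in miR-Ctrl BDL. Their median log2 fold change was -7.40 beside -0.01 for all 13072 genes tested. Mup17 differed by -8.06 ± 0.78, Mup11 by -8.06 ± 0.74, Mup7 by -7.86 ± 0.71, Mup16 by -7.66 ± 0.76, Mup1 by -7.46 ± 0.78, Mup12 by -7.34 ± 0.78 and Mup18 by -7.27 ± 0.80 (log2 fold change ± SE, 4 mice against 5). Mup21, at -6.75 ± 0.63, and Mup3, at -6.48 ± 0.68, followed closely. Mup20 differed by -2.11 ± 0.81, which is much less than any other member. By edgeR's quasi-likelihood test with an adjusted p under 0.05 over all genes, 9 of the 10 were called lower, where 16.6% of all genes tested were called lower and 19.1% higher. All 10 members had groups that did not overlap, lower in BDL, as did 14.8% of all genes tested. Nothing is read from these counts, since the members were selected on this contrast.

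Mup20 did not pass the threshold in that fit, although its groups did not overlap in normalised CPM. As a share of all counts, with no further scaling between mice, the groups overlapped. Mup20 took 0.725%, 0.738%, 0.532%, 0.906% and 0.938% of all counts in no BDL mice 1 to 5 and 0.456%, 0.747%, 0.0152% and 0.128% in miR-Ctrl BDL mice 1 to 4, so that miR-Ctrl BDL mouse 2 lay above no BDL mice 1, 2 and 3. It passed the threshold without miR-Ctrl BDL mouse 2, at a log2 fold change of -2.83, and without miR-Ctrl BDL mouse 3, at -1.72. Without miR-Ctrl BDL mouse 3 the other 9 members stood between -7.73 and -6.14.

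For anti-miR BDL against the same 5 no BDL mice, the median log2 fold change of the members was -5.81 beside -0.01 for all 13130 genes tested. Mup7 differed by -6.26 ± 1.04, Mup1 by -5.83 ± 0.95, Mup21 by -5.41 ± 0.77 and Mup3 by -5.34 ± 0.73, and the other 5 members apart from Mup20 lay between Mup7 and Mup3. Mup20 differed by -1.46 ± 0.72. In this comparison 9 of the 10 members were called lower, where 8.44% of all genes tested were called lower and 13.1% higher. Groups did not overlap for the same count of 9 members, lower in BDL, as for 8.23% of all genes tested, and Mup20 was the member that overlapped. Without anti-miR BDL mouse 1 the 9 members other than Mup20 stood between -7.99 and -6.36, and without mouse 2 Mup20 stood at -1.08 and passed the threshold. Nothing is read from these counts either, because both comparisons with no BDL share the control mice and the members were chosen with them known.

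Scaling by library size alone moved the median of all genes to 0.79 in miR-Ctrl BDL against no BDL and to 0.82 in anti-miR BDL against no BDL. All 10 members were still lower in both comparisons under each scaling tried. For Mup20, the member nearest to 0, the size moved with the scaling, from -2.11 to -1.19 in miR-Ctrl BDL and from -1.46 to -0.58 in anti-miR BDL with library size alone. Scaled by library size without the 20 genes with the most counts, Mup20 stood at -1.66 and -1.08, and it was not called under either scaling.

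**Figure D5:**
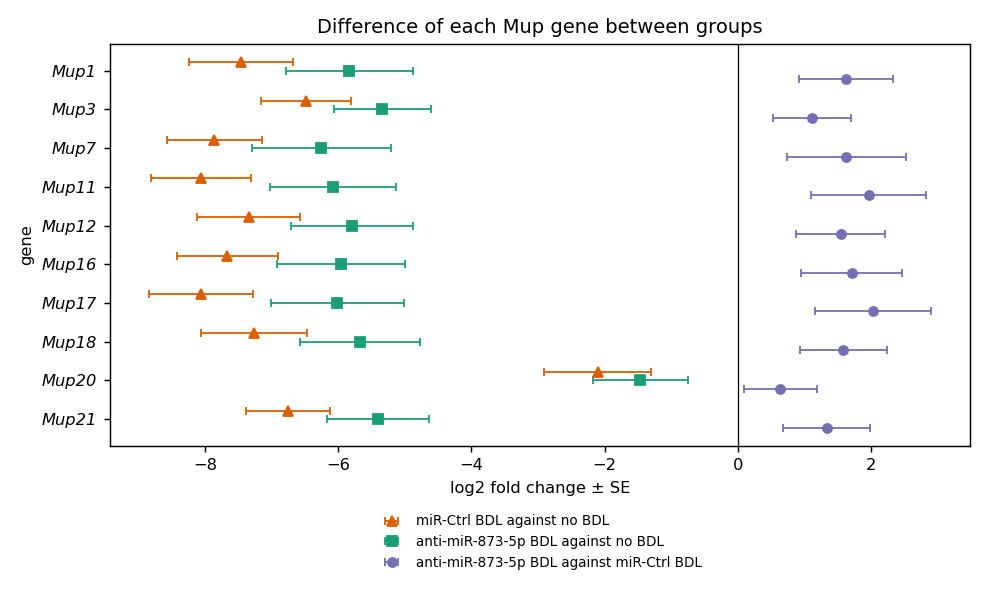
Log2 fold change ± SE of each Mup gene in the 3 comparisons, from edgeR fits over all genes. The 9 members other than Mup20 lie between -8.06 and -5.34 in both comparisons with no BDL, Mup20 lies at -2.11 and -1.46, and all 10 lie above 0 in anti-miR BDL against miR-Ctrl BDL, between 0.64 and 2.04.

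The comparison of anti-miR BDL with miR-Ctrl BDL asks what the inhibitor changes in ligated livers, and its table holds 3 mice per group. All 10 members had higher means with anti-miR-873-5p, from 0.64 ± 0.55 for Mup20 and 1.12 ± 0.59 for Mup3 to 2.04 ± 0.87 for Mup17 on the log2 scale. The groups overlapped for all 10 members. In this comparison 0 of the 10 members were called, as were 0% of all 13746 genes tested by edgeR, where 863 genes had an unadjusted p under 0.05 and DESeq2 called 30 genes. Groups that did not overlap, higher with anti-miR-873-5p, were found for 6.59% of all genes tested and for none of the members. For the 9 members other than Mup20 the difference in the means rested on anti-miR BDL mouse 1. Without this mouse they stood between -0.27 (Mup7) and 0.36 (Mup18), and Mup20 stood at 0.44. The Mup20 difference moved with single miR-Ctrl BDL mice, to 0.21 without mouse 4 and to 1.21 without mouse 2. With the 2 mice that the table leaves out, the 9 members stood between 1.14 and 2.05.

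The 10 other Mup genes with rows, Mup2, Mup4, Mup5, Mup6, Mup8, Mup9, Mup10, Mup13, Mup14 and Mup15, were all lower in miR-Ctrl BDL as well. Of these 9 were called lower, and their log2 fold changes ran from -7.99 for Mup2 to -2.07 for Mup6. Mup4 differed by -4.10 ± 0.84 and Mup5 by -5.71 ± 0.87, between the central members and Mup20. In anti-miR BDL against no BDL 9 were again called lower, with Mup4 at -3.33 ± 0.69, Mup5 at -4.70 ± 0.74 and Mup6 at -1.47 ± 0.64. Mup6 had between 0.487 and 0.583 counts per 100 Mup20 counts in each of the 13 mice. Counts of Mup15 for the same mouse differed 3.46-fold to 9.15-fold between tables, while those of the 10 members were identical in all tables.

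Genes that carry the growth hormone signal, or bind Mup promoters, fell in part. Of 20 such genes tested in miR-Ctrl BDL against no BDL, 8 fell, 3 rose and 9 were not called, with a median log2 fold change of -0.47 beside -0.01 for all genes. Of all genes tested in this comparison, 16.6% were called lower and 19.1% higher. Ghr, the growth hormone receptor, fell by 2.15 ± 0.26 on the log2 scale (adjusted p = 0.00040, edgeR). Onecut1, a hepatocyte transcription factor that responds to growth hormone, fell by 2.21 ± 0.44 (adjusted p = 0.0040). Igfals, the serum partner of IGF1 and a growth hormone target, fell by 1.67 ± 0.17 (adjusted p = 0.00018). The 3 genes that rose, named after their values were seen, were Jak2, at 0.44 ± 0.11, and the feedback inhibitors Socs1, at 3.56 ± 1.03, and Socs3, at 2.82 ± 0.68 (edgeR adjusted p = 0.010, 0.022 and 0.010). The groups overlapped for Socs1 and Socs3, and miR-Ctrl BDL mouse 3 was the highest for both. Scaled within this table, Socs1 stood at 0.763, 1.01, 15.1 and 4.85 normalised CPM in miR-Ctrl BDL mice 1 to 4 and at 0 to 0.983 in no BDL, and Socs3 at 18.4, 46.6, 220 and 43.4 beside 4.19 to 19.3. Without miR-Ctrl BDL mouse 3, Socs1 stood at 2.27 and lost its call (adjusted p = 0.056, edgeR), while Socs3 stood at 1.63 and kept it (adjusted p = 0.011, edgeR). Socs1 also lost its call without no BDL mouse 1 or mouse 2 (edgeR adjusted p = 0.052 and 0.051). Without miR-Ctrl BDL mouse 3, 10 genes of the list fell and 2 rose.

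The signal transducers themselves were not called. In miR-Ctrl BDL against no BDL, Stat5a stood at 0.10 ± 0.17 and Stat5b at -0.22 ± 0.17 (log2 fold change ± SE). The targets Igf1, at -0.62 ± 0.23, and Socs2, at -0.46 ± 0.50, were not called. Nor were Zhx2, a transcription factor tied to Mup expression, at 0.42 ± 0.20, and Hnf4a, a hepatocyte nuclear receptor, at -0.24 ± 0.17. In anti-miR BDL against no BDL 6 of the 20 fell and 1 rose, with Ghr at -1.67 ± 0.36 (adjusted p = 0.011), Onecut1 at -1.78 ± 0.48 (adjusted p = 0.028) and Igfals at -1.29 ± 0.19 (adjusted p = 0.0024), all by edgeR. The count that fell was 2 without no BDL mouse 4 and 3 without no BDL mouse 1 or 2 or anti-miR BDL mouse 3 or 4. Of all genes tested in anti-miR BDL against no BDL, 8.44% were called lower and 13.1% higher. Onecut1 lost its call without no BDL mouse 4 or anti-miR BDL mouse 1 or 3, at -1.81, -1.60 and -1.96 (edgeR adjusted p = 0.052, 0.052 and 0.056). Igf1 fell without miR-Ctrl BDL mouse 3, at -0.95 (adjusted p = 0.00074, edgeR), and without anti-miR BDL mouse 2, at -0.80 (adjusted p = 0.0038, edgeR). Hnf4a, at -0.41, fell without miR-Ctrl BDL mouse 3 (adjusted p = 0.044, edgeR). Between both BDL groups 0 of 21 were called by edgeR, and 0.48 ± 0.35 was the log2 fold change of Ghr. In that table Ghr stood at 338, 149 and 132 normalised CPM in anti-miR BDL mice 1, 3 and 4 and at 139, 158 and 145 in miR-Ctrl BDL mice 1, 2 and 4. The difference in the means of Ghr thus rested on anti-miR BDL mouse 1, and without it the log2 fold change was -0.07.

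Other male-biased liver genes fell as well. Of 15 on the list, 12 fell in miR-Ctrl BDL against no BDL and 0 rose, with a median log2 fold change of -2.59 beside -0.01 for all genes. In anti-miR BDL against no BDL 9 of the 15 fell and 0 rose, with a median of -2.23. Of all genes tested, 16.6% and 8.44% were called lower in these comparisons. Hsd3b5, a steroid dehydrogenase of male liver, went from 2448 to 5347 counts in the no BDL mice to 3 to 7 counts in miR-Ctrl BDL and 1 to 45 counts in anti-miR BDL, and its log2 fold changes were -9.97 ± 0.48 and -8.31 ± 0.90 (edgeR adjusted p = 1.3e-05 and 0.00088). Slco1a1, an organic anion transporter, fell by 6.57 ± 0.59 and 4.74 ± 0.55 on the log2 scale (edgeR adjusted p = 0.00012 and 0.0011). Elovl3, a fatty acid elongase, fell by 6.30 ± 0.83 and 4.82 ± 1.07 (edgeR adjusted p = 0.00059 and 0.013). Without anti-miR BDL mouse 1, in anti-miR BDL against no BDL, Hsd3b5 stood at -10.08, Slco1a1 at -5.34 and Elovl3 at -6.47. On the list of 13 female-biased genes, 5 were tested in miR-Ctrl BDL and 6 in anti-miR BDL against no BDL, with 0 called by edgeR in either and medians of -0.10 and -0.04.

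Lipocalins outside the Mup family moved in both directions. Of 10 tested in miR-Ctrl BDL against no BDL, 5 rose (Obp2a, Orm1, Orm2, Orm3 and Ptgds) and 2 fell (C8g and Rbp4), with a median log2 fold change of 2.06. Of all genes tested, 19.1% were called higher and 16.6% lower here, and 13.1% and 8.44% in anti-miR BDL against no BDL. Orm2, an acute phase glycoprotein, rose by 2.69 ± 0.83 (adjusted p = 0.029, edgeR), and C8g, a complement component, fell by 1.53 ± 0.14 (adjusted p = 0.00012, edgeR). Lcn2, a lipocalin that binds bacterial siderophores, stood at 4.63 ± 1.67 (adjusted p = 0.054, edgeR), with 1592, 3017, 6606 and 2555 normalised CPM in miR-Ctrl BDL mice 1 to 4. In no BDL it stood at 4.92, 2.86, 5.67, 8.55 and 679, so that no BDL mouse 5 was apart from its group. The same mouse stood apart for Orm2, at 1151 normalised CPM beside 96.8, 108, 102 and 106 in no BDL mice 1 to 4, and it reached the level of miR-Ctrl BDL mouse 1, at 1149, where mice 2 to 4 had 1767, 2984 and 2067. Without no BDL mouse 5, the log2 fold change was 4.29 for Orm2 and 9.30 for Lcn2, and both were called (adjusted p = 6.3e-05 for each, edgeR). Orm2 lost its call without any other no BDL mouse and without miR-Ctrl BDL mouse 2 or 4 (edgeR adjusted p from 0.052 to 0.064). The count of 5 that rose was 3 without no BDL mouse 1, 2, 3 or 4 and 2 without miR-Ctrl BDL mouse 4, and the count of 2 that fell was 1 without any 1 of these mice or without miR-Ctrl BDL mouse 1 or 2. In anti-miR BDL against no BDL 2 of 10 rose (Obp2a and Orm3) and 1 fell (C8g), with a median of 1.23, and the count that rose was 0 without no BDL mouse 1, 3 or 4 or anti-miR BDL mouse 4, 1 without no BDL mouse 2 or anti-miR BDL mouse 2 or 3, and 4 without no BDL mouse 5. There, too, Orm2 and Lcn2 were called without no BDL mouse 5, at 3.57 and 8.15 (edgeR adjusted p = 0.00051 and 0.00064). All genes named here only for these counts were named after their values were seen.

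Secreted plasma proteins of hepatocytes outside the Mup family had a median closer to 0 than the Mup members. Whether their levels follow the number of hepatocytes was not tested. Of 25 tested in miR-Ctrl BDL against no BDL, 12 fell and 2 rose (Hpx and Trf), with a median log2 fold change of -0.77. In anti-miR BDL against no BDL 9 fell and 0 rose, with a median of -0.31. The shares of all genes called were 16.6% and 8.44% lower, and 19.1% and 13.1% higher, in the same order. The count of 2 that rose was 4 without no BDL mouse 5 and 1 without any other mouse. Ttr, the carrier of thyroxine, fell by 2.14 ± 0.22 and 1.67 ± 0.30 (edgeR adjusted p = 0.00021 and 0.0057). Serpina3k, of the serine protease inhibitor family, fell by 2.07 ± 0.32 and Serpina1d, a protease inhibitor with close paralogs, by 2.00 ± 0.22 in miR-Ctrl BDL (edgeR adjusted p = 0.0011 and 0.00028). Alb, serum albumin, stood at -0.80 ± 0.34 and -0.82 ± 0.40 and was not called (edgeR adjusted p = 0.093 and 0.17).

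Markers of other liver cells moved with BDL too. The summed level of 6 hepatocyte markers was 73010 to 84480 normalised CPM in no BDL and 33358 to 58501 in miR-Ctrl BDL, and 3 of the 6 fell. All 6 cholangiocyte markers rose, with a sum of 38.3 to 112 in no BDL and 399 to 1463 in miR-Ctrl BDL. In ligated livers 1 gene made up most of each of these sums. Scaled within the comparison of both BDL groups, Spp1 stood at 1393, 2012 and 1294 in miR-Ctrl BDL mice 1, 2 and 4. The cholangiocyte sum there was 1348 to 2099. Alb stood at 66249, 42622 and 76958 in these mice, where the hepatocyte sum was 49923 to 84870. Of the macrophage markers 5 of 6 rose, and their sum went from 75.6 to 374 in no BDL to 435 to 1119 in miR-Ctrl BDL. Of the fibroblast markers 4 of 6 rose, with sums of 41.2 to 77.9 and 120 to 429. All 3 neutrophil markers tested rose, with sums of 2.77 to 11.9 and 15.4 to 166, as did 1 of 2 lymphocyte markers (Ptprc), while 0 of 4 endothelial markers were called by edgeR. Of all genes tested in this comparison, 19.1% were called higher and 16.6% lower. In anti-miR BDL the sums were 31457 to 63432 for hepatocyte and 195 to 1438 for cholangiocyte markers, and 1 of 6 hepatocyte markers fell. There 6 of 6 cholangiocyte, 2 of 6 macrophage, 3 of 6 fibroblast and 3 of 3 neutrophil markers rose, beside 13.1% of all genes tested. Among 4 endothelial markers 1 fell (Kdr), beside 8.44% of all genes, and the 1 lymphocyte marker tested was not called. Without 1 mouse, 1 to 5 macrophage, 0 to 4 neutrophil, 3 to 5 fibroblast and 4 to 6 cholangiocyte markers rose. In miR-Ctrl BDL, 5 of 6 hepatocyte markers fell without mouse 3, 3 of 6 macrophage markers rose without mouse 2, and 2 of 6 fibroblast markers rose without mouse 1, mouse 2 or no BDL mouse 4. In anti-miR BDL, 3 of 6 hepatocyte markers fell without mouse 2. The part of the cell make-up in the Mup levels was not tested, and the ratio of Mup20 to Mup1 is taken within each mouse.

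Over all 13 mice and 12984 genes, the genes whose pattern was most like the summed level of the 10 members were, by Pearson's r of log2 normalised CPM, a row with Entrez number 100048885 and no symbol in the RefSeq table (r = 0.984), Alas2 (0.976), Lifr (0.976), Ugt2b1 (0.972) and Car3 (0.971). Alas2 makes the first step of haem synthesis in erythroid cells, Lifr is the receptor of leukaemia inhibitory factor, Ugt2b1 is a glucuronosyltransferase and Car3 is a carbonic anhydrase of liver and muscle. The row without a symbol kept 1.81 to 2.10 counts per Mup1 count in all 13 mice, and whether it shares reads with the Mup genes was not tested. These r describe mice that share a treatment, and no BDL mice lie far from BDL mice in all of them. Among the 8 BDL mice alone, r was 0.929, 0.915, 0.926, 0.884 and 0.952 in the same order. The genes were picked over all 13 mice, which include these 8, so that these r are no separate check.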

How the data were processed

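Liver RNA of 13 mice was sequenced. The authors made TruSeq RNA v2 libraries, read single 50 nt reads on a HiScanSQ and mapped them to mm10 with TopHat, and the deposited values are raw counts per Entrez gene in 3 tables, 1 per comparison. The counting program, its annotation and its handling of reads that fit several genes are not given in the sources used here, and DESeq2 was the authors' test. All value columns were used.

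Entrez numbers were matched to RefSeq symbols of GRCm38.p6 for 23008 of 23079 rows (miR-Ctrl BDL against no BDL) and 23666 of 23725 rows (the other tables). Counts were fitted per table in R 4.3.3 with edgeR 4.0.16 (filterByExpr, TMM, quasi-likelihood test, Benjamini-Hochberg adjustment over all genes, threshold 0.05). The SE was taken from the fold change and the square root of its F statistic. Levels of all 13 mice were scaled together over the 22246 rows with identical counts in the tables. Windows of 50 bases were compared between GENCODE M21 transcripts. The test was tested on simulated data before use. Nothing says that the mice of a group were from separate litters or cages, and p-values set group differences against a spread estimated from these mice.

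The members and all gene lists were chosen with earlier results of these data known. The genes named are the members, all other Mup genes, up to 3 genes of each list that passed the threshold without overlap and had the largest absolute change in miR-Ctrl BDL against no BDL, 9 fixed genes (Ghr, Stat5a, Stat5b, Igf1, Socs2, Zhx2, Hnf4a, Alb and Lcn2) and the 5 genes most like the summed members. Alternatives were other scalings, filters and fits, DESeq2 1.42.0, the mouse number as a block, and leaving out each mouse. The ratio of Mup20 to Mup1, the named genes of the lists and the counts per list without each mouse were added after seeing the data.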

Additional observations from a re-analysis of the deposited data

Results flagged for a closer look

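Among groups of 4 or 5 mice, 11 of 54 sets of Mup values held 1 mouse far from the others by Dixon's test at the 95% level, and all 11 were anti-miR BDL mouse 1, the highest of its group. About 1 in 20 sets is marked by chance, and these genes share reads, so that the 11 are not separate events. In normalised CPM this mouse had 2665 for Mup1, where the other 3 mice of its group had 175 to 538. It had 821 for Mup7 (others 60.1 to 120), 288 for Mup11 (25.6 to 43.9), 2043 for Mup12 (145 to 454), 678 for Mup16 (38.1 to 127), 999 for Mup17 (68.1 to 158) and 89.4 for Mup21 (7.59 to 18.2). Of the other Mup genes it had 1978 for Mup10 (108 to 358), 1411 for Mup13 (78.8 to 241), 902 for Mup14 (50.3 to 122) and 1680 for Mup8 (90.1 to 249). Mup3, Mup18, Mup20 and the summed share were not marked in this mouse.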

How the results depend on the processing

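Each of the 10 members kept its direction in both comparisons with no BDL under every alternative run. Genes called in miR-Ctrl BDL compared with no BDL went from 4666 to 9635 with library size alone (97.1% higher, beside 53.4%) and ran from 3775 to 5710 without 1 mouse. In anti-miR BDL against no BDL they went from 2823 to 10194 with library size alone (98.7% higher, beside 60.8%) and to 4745 without the 20 genes with the most counts (92.9% higher), and ran from 1261 without anti-miR BDL mouse 3 to 4317 without mouse 2. They also fell by more than 1.5 times without no BDL mouse 1 (1738), 2 (1718), 3 (1824) or 4 (1713) and anti-miR BDL mouse 4 (1392). Between both BDL groups 0 genes became 30 with DESeq2's Wald test, and leaving out 1 mouse gave 0 to 1. There Mup7 turned to -0.27 without anti-miR BDL mouse 1, and stood at up to 2.12 without mouse 4. In miR-Ctrl BDL against no BDL Mup20 also passed the threshold with DESeq2 (-2.09) and with the mouse number as a replicate block (-2.89), and in anti-miR BDL without mouse 2 (-1.08). Mice with the same number did not vary together in the comparisons with no BDL (r from -0.20 to 0.08). Between both BDL groups only the numbers 1 and 4 were shared, with r of 0.57 and 0.18. With the block the genes called were 4063, 2195 and 0. The fits count members called as 9 to 10 in both comparisons with no BDL and as 0 between both BDL groups under every alternative. On a log2 scale the difference in summed share ran from -6.15 to -4.56 and from -5.01 to -3.57 in the comparisons with no BDL without 1 mouse, and from 0.54 to 1.41 between both BDL groups. The log2 ratio of Mup20 to Mup1, an alternative chosen after seeing the data, stayed 3.82 to 5.05 higher with BDL without any 1 mouse. Leaving out each mouse for the named genes of the lists was also chosen after seeing the data. Of 22 such genes, 2 of 14 called in miR-Ctrl BDL and 1 of 11 called in anti-miR BDL against no BDL lost their call without at least 1 mouse, and none of the called genes changed sign. Between both BDL groups, where none was called, 10 of 21 changed sign. Depth did not limit the members, while the sharing of reads limits what the counts of a single central member can show.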

Other observations

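The row with Entrez number 100048885, which has no symbol in the RefSeq table and was left out of the Mup sums, took 3.66% to 7.74% of all counts in the no BDL mice, 0.0107% to 0.114% in miR-Ctrl BDL and 0.0344% to 0.593% in anti-miR BDL. In the no BDL mice it ranked first or second among all rows. It had 1.81 to 1.97 counts per Mup1 count in no BDL, 1.88 to 2.02 in miR-Ctrl BDL and 1.92 to 2.10 in anti-miR BDL.

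Cux2, a repressor of male-biased genes that is known from female liver, was looked at after its values were seen. It had 1 to 7 counts in the no BDL mice, 3 to 22 counts in 6 BDL mice, 134 counts in miR-Ctrl BDL mouse 3 and 493 counts in anti-miR BDL mouse 2. These last 2 mice had the lowest Mup20 levels of their groups, at 154 and 246 normalised CPM. In counts they were the lowest of their groups for every other member too. The authors left both mice out of the comparison of both BDL groups.

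The genes whose pattern over the 13 mice was most like that of Mup20, chosen after its values were seen, were Ces3a (r = 0.956), Aifm3 (0.955), Keg1 (0.948), Slc9a3r2 (0.948) and C730036E19Rik (0.944). Their r with the summed members were 0.936, 0.866, 0.931, 0.895 and 0.885. Among the 8 BDL mice r with Mup20 was 0.954, 0.984, 0.946, 0.937 and 0.897, which is no separate check, because the 13 mice include these 8.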
